A study of Mus musculus with 6 samples.

Results

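Transcripts of 8 genes that shape the actin cortex were followed in mouse bone marrow stem cells with and without BCR/ABL, the kinase that drives chronic myeloid leukaemia (CML). They are the Ena/VASP genes Enah, Evl and Vasp, their partner Zyx, the sialomucin gene Podxl, and the ezrin, radixin and moesin genes Ezr, Rdx and Msn. Members were found by gene symbol: every probe set annotated to 1 of these 8 symbols alone was taken, which gave 22 probe sets for 8 of the 18193 genes on the array. The set was chosen by the measured rises of Enah and Podxl in BCR/ABL over vector cells, with the other genes added as their relatives and partners, so the members' values in that comparison are a description, with no p-value for any of them, and the calls and intervals given beside them support nothing.

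Transcript levels were measured on 6 Affymetrix arrays, with 2 arrays in each of 3 groups. All cells came from bone marrow and were sorted as GFP+Lin-c-Kit+Sca-1+, a gate that enriches haematopoietic stem cells (HSC). The vector group carried an empty GFP vector, the BCR/ABL group expressed BCR/ABL in untreated CML mice, and the BCR/ABL imatinib group expressed BCR/ABL in mice given imatinib, a drug that inhibits the kinase. Mouse strain, mouse age, imatinib dose and length of treatment were not among the details available. Nothing in the labels ties an array to a mouse of its own or to a pool, and p-values therefore reflect only how far these particular samples spread, possibly for technical reasons.

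Ena/VASP proteins sit at the growing ends of actin filaments, protect them from capping and help deliver profilin-bound actin. Their EVH1 domain binds proline-rich partners such as zyxin, a LIM protein of focal adhesions and stress fibres. Podocalyxin, a heavily charged relative of CD34 found on blood progenitors, vascular endothelium and kidney podocytes, is tied to actin through ezrin and its scaffold NHERF. Ezrin, radixin and moesin (ERM proteins) link membrane proteins to cortical actin, and moesin is the abundant family member in leukocytes.

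Enah was the Ena/VASP gene called in BCR/ABL cells, and the bases before a RefSeq transcription start (table build GRCm38.p6) are shown for it and its paralogs Evl and Vasp, 5′ to 3′ on each gene's own strand. Capitals mark matches to GGGCGG on either strand, a GC box letter pattern. The windows are chr1:182019981-182020230 on the minus strand for Enah, chr12:108554470-108554680 on the plus strand for the first of 2 listed Evl starts, and chr7:19271855-19272104 on the minus strand for Vasp. The Evl window stops where the RefSeq gene interval begins. The Enah window lies inside the RefSeq gene interval, which reaches further upstream.
Enah: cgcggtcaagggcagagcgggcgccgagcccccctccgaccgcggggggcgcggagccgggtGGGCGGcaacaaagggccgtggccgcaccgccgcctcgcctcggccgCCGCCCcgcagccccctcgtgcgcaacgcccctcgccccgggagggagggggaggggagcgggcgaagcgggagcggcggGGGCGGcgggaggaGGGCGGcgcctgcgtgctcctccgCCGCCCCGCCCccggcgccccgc
Evl: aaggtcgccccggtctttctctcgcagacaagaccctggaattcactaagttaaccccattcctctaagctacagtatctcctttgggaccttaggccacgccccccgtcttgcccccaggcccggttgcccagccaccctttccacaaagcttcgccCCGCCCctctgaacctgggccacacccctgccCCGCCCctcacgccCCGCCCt
Vasp: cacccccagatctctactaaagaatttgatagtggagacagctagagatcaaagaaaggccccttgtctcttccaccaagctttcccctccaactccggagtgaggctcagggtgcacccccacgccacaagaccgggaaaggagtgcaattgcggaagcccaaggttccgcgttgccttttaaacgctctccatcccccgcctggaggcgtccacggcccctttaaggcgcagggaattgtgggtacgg
Over 250 bases, the G and C content was 84.8% for Enah, above that of 99.8% of the 32851 listed windows, 64% for the first Evl start and 57.2% for Vasp, against a median of 52.4%. CG dinucleotides numbered 42, 16 and 12, against a median of 6. GGGCGG was matched 6 times for Enah, including 1 overlapping pair, and 3 times for the first Evl start, with 0 matches for Vasp, and 32.7% of all windows held it. The second Evl start was unlike the first, at 49.2% for that content, with 2 such dinucleotides and 0 matches. The letters TTCNNNGAA, bound by STAT factors, were in 0 of the 9 windows listed for the members and in 7.02% of all windows, the CArG box in 0 of 9 and in 1.47%, and GATAAG in 0 of 9 and in 6.55%. TGANTCA, the AP-1 letters, was matched once each before Zyx and Ezr and in 6.75% of all windows, and CACGTG once before Msn and in 6.02%; each pattern was searched on both strands, and none of the 6 overlapped another pattern in these windows. Upstream windows were found for 7 of the 8 members, the exception being Podxl.

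Values are given as deposited intensity and as log2(intensity + 16) after quantile normalization, called the log2 level, whose floor is 4. Levels of different probe sets cannot be set against each other. A difference is called when its adjusted p from limma, with Benjamini-Hochberg adjustment over 35877 probe sets, is under 0.05. Of the 8 genes by their brightest probe sets, 2 were called higher in BCR/ABL than in vector cells, where 0.104% of all genes were called and 0.0989% were called higher. These are Enah and Podxl, which led to the choice of members, so nothing is read from that count.

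**Figure D1:**
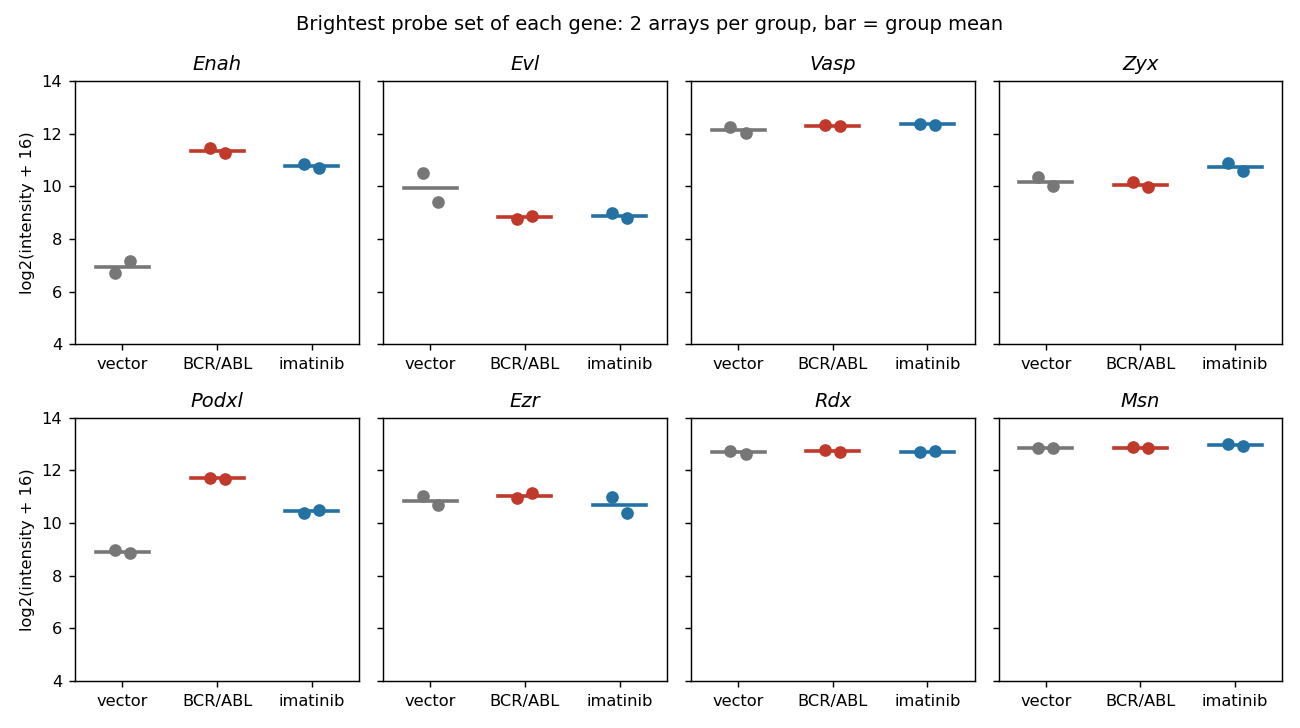
Log2 level, log2(intensity + 16), of the brightest probe set of each of the 8 genes; each point is 1 array, each bar a group mean of 2 arrays, and the 3 groups are vector, BCR/ABL and BCR/ABL with imatinib. Enah rises from a vector mean of 6.93 to 11.35 and Podxl from 8.92 to 11.70, with imatinib in between, while Vasp, Rdx and Msn lie nearly level.

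Enah, which encodes the Ena/VASP protein Mena, a promoter of protrusion and motility, was the member that differed most between BCR/ABL and vector cells. Its brightest probe set read 98.6 and 122 on vector arrays 1 and 2, 2832 and 2427 on the untreated BCR/ABL arrays, then 1810 and 1626 under imatinib. The vector arrays were low, the BCR/ABL arrays high, the imatinib arrays between them, and no groups overlapped. The log2 level was 6.93 ± 0.33 (SD, n = 2) for vector, 11.35 ± 0.14 for untreated BCR/ABL and 10.76 ± 0.09 under imatinib. The BCR/ABL level was thus 4.42 above vector (SE 0.21), or 21.4-fold on the scale with the added constant. In bulk samples such as these, fewer cells of a type and less RNA per cell cannot be told apart.

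The other 5 Enah probe sets gave the same order of the 3 groups. Their differences between BCR/ABL and vector ran from 1.66 to 4.66, and on each of the 6 probe sets both imatinib arrays lay, by normalized level, below both BCR/ABL arrays and above both vector arrays. In deposited intensity the imatinib and BCR/ABL arrays overlapped on 3 of the 6. The probe sets share the same 6 samples and are not independent evidence. On 3 of the 6, those with vector means of 4.54, 4.22 and 4.23, both vector arrays lay below an intensity of 16, where background and transcript cannot be separated, so their differences depend on the added constant. The mean over the 6 probe sets was 3.39.

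Evl, the Ena/VASP member typical of haematopoietic cells, was lower in BCR/ABL cells, in a comparison that gave it no call. Its brightest probe set read 1401 and 649.75 (vector), 404 and 444 (BCR/ABL) and 503 and 450.4 (imatinib). Vector replicate 1 was the highest array, vector replicate 2 was also above the other 4, and the BCR/ABL and imatinib arrays overlapped after normalization (log2 levels of 8.76 and 8.89 for BCR/ABL, with imatinib replicate 2 at 8.78), though not in deposited intensity. The difference between BCR/ABL and vector was -1.13 (SE 0.36), and those of the other 3 probe sets were -0.94, -2.19 and -0.51, the last with overlapping groups. The size rested on the vector arrays: it was -0.59 when vector replicate 1 was left out and -1.66 when vector replicate 2 was.

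Vasp, the founding member of the family and a substrate of cyclic nucleotide-dependent kinases in platelets, differed little. Its single probe set read 4958 and 4278 (vector), 5075 and 5039.8 (BCR/ABL) and 5160 and 4979 (imatinib). After normalization both vector arrays lay below the other 4, vector replicate 2 lowest, and all 6 arrays lay between log2 levels of 12.04 and 12.36. The difference between BCR/ABL and vector was 0.15, with a 95% interval from -0.09 to 0.38.

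Zyx read 1272 and 999.1 (vector), 1141 and 999.2 (BCR/ABL) and 1870 and 1518 (imatinib). The vector and BCR/ABL arrays overlapped, with a difference of -0.11 (95% interval -0.55 to 0.32), whose sign turned to 0.14 when arrays were centred on their medians. Both imatinib arrays lay above all 4 others. The dimmer Zyx probe set, at 21.2 to 67.1, gave 0.29 (SE 0.48).

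**Figure D2:**
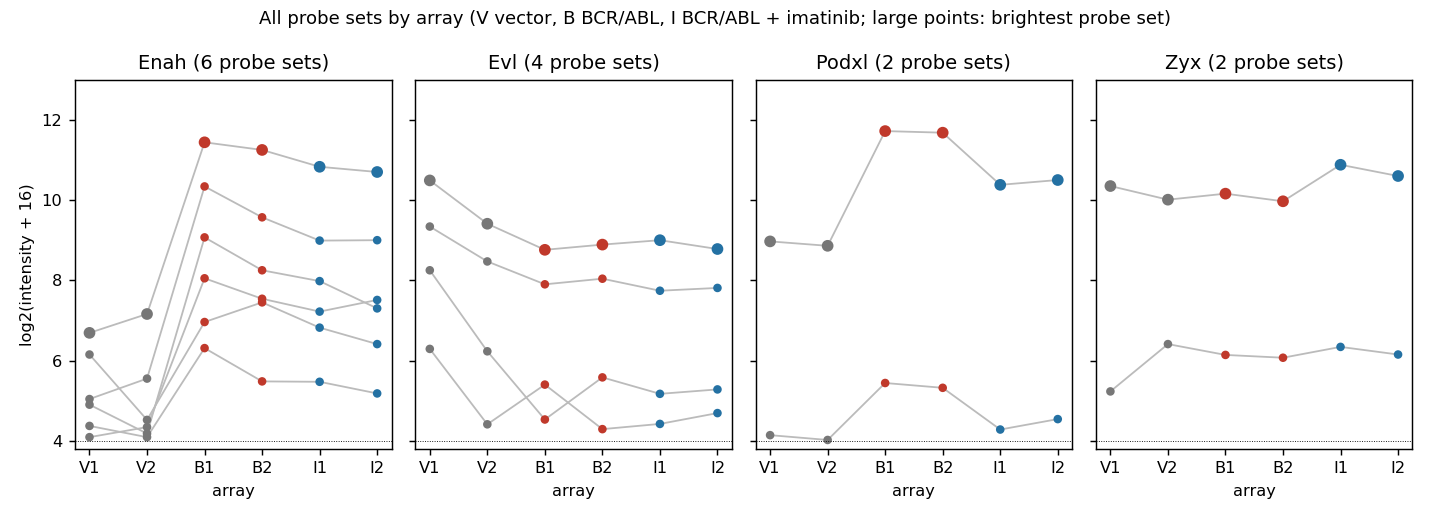
Log2 level of every probe set of Enah, Evl, Podxl and Zyx on each of the 6 arrays (V vector, B BCR/ABL, I BCR/ABL with imatinib; large points mark the brightest probe set and the dotted line the floor of 4). The 6 Enah and 2 Podxl probe sets are high in B, intermediate in I and low in V, the 4 Evl probe sets are highest in V1, and the brighter Zyx probe set is highest in I.

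Podxl, the sialomucin gene, was the other member far above vector in BCR/ABL cells. Its brightest probe set read 488 and 437 (vector), 3420.4 and 3288 (BCR/ABL) and 1324 and 1418 (imatinib). The groups were ordered as for Enah and did not overlap. The log2 levels were 8.92 ± 0.08 (SD, n = 2), 11.70 ± 0.02 and 10.44 ± 0.09, so BCR/ABL lay 2.79 above vector (SE 0.12), or 6.90-fold. The dimmer Podxl probe set, at 1.46 and 0.267 in vector, under 16, and 21.4 and 22.1 in BCR/ABL, gave 1.30 and the mean of the 2 was 2.04.

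The ERM genes showed no comparable separation. Msn, which encodes moesin, read 7588 and 7499 (vector), 7311 and 7370.03 (BCR/ABL) and 8053 and 7726 (imatinib); its difference between BCR/ABL and vector was 0.01 (95% interval -0.15 to 0.16). Rdx, which encodes radixin, read 7033 and 6574 (vector), 6875 and 6685 (BCR/ABL) and 6457 and 6594 (imatinib), a difference of 0.04 (-0.14 to 0.21). Ezr, which encodes ezrin, read 2017 and 1613 (vector), 2003 and 2238 (BCR/ABL) and 1999 and 1302 (imatinib), a difference of 0.20 (-0.36 to 0.75). After normalization the groups overlapped for each of these 3 in that comparison. In deposited intensity both BCR/ABL arrays lay below both vector arrays for Msn, whose normalized log2 levels were 12.87 and 12.84 against 12.85 and 12.84.

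The minor ERM probe sets did not all follow the brightest. The dimmer Msn probe set read 219 and 184 in vector and 401 and 288 in BCR/ABL, a difference of 0.79 (SE 0.31) with no overlap. The 2 other Rdx probe sets gave -0.11 and -0.29. The dimmer Ezr probe set lay below an intensity of 16 on all 6 arrays, the one member probe set of 22 to do so.

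**Figure D3:**
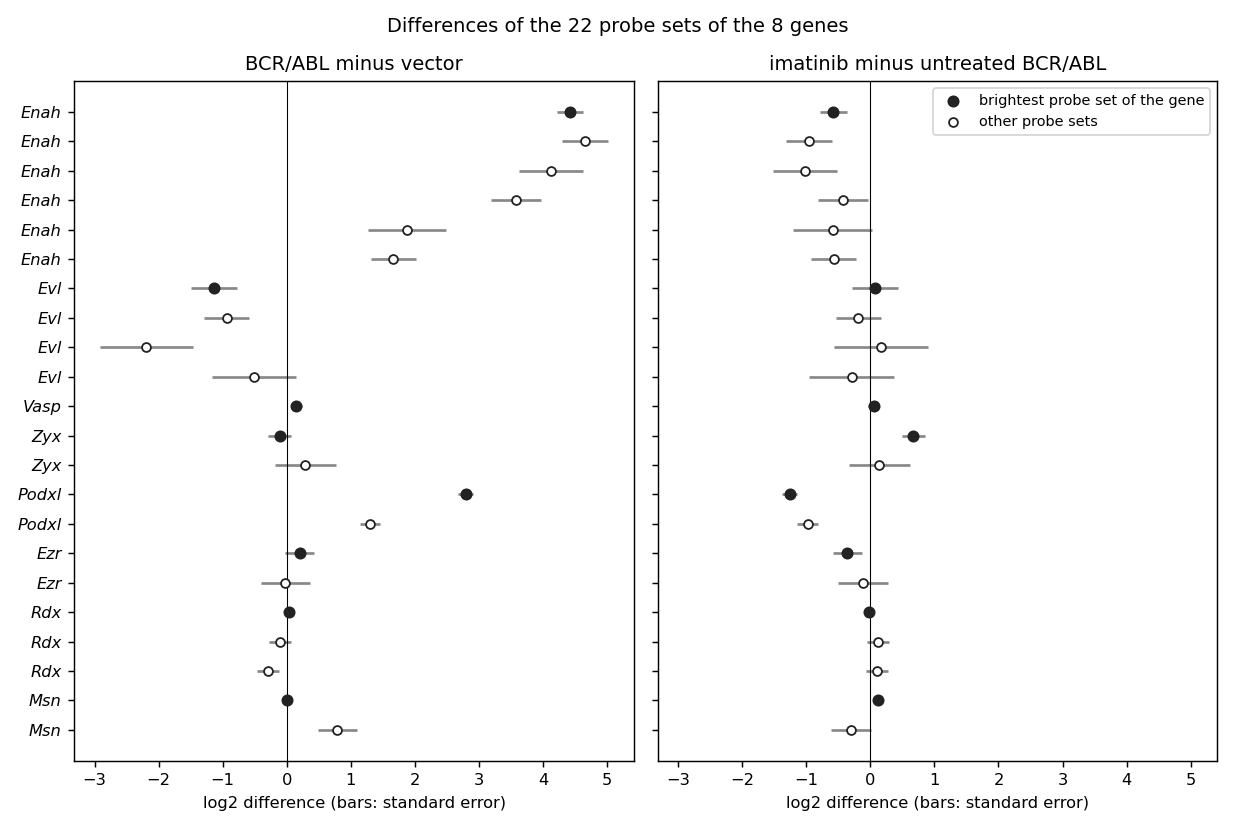
Log2 difference (points) and standard error (bars) of the 22 probe sets of the 8 genes, BCR/ABL minus vector on the left and imatinib minus untreated BCR/ABL on the right; filled points are the brightest probe set of a gene. Enah and Podxl lie right of 0 on the left and left of 0 on the right, and the filled Evl point lies left of 0 in the first comparison and near 0 in the second.

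Across the 22 probe sets, 10 were higher and 4 lower in BCR/ABL than in vector cells with no overlap, where 43.2% of all 35877 probe sets did not overlap, 23.5% higher and 19.7% lower. Of the 10, 6 were from Enah and 2 from Podxl, which led to the choice of members, and of the 4, 3 were from Evl. Nothing is read from these counts. Probe sets called numbered 3, from Enah (2) and Podxl (1), where 0.0613% of all were called. The calls depended on single arrays: without BCR/ABL replicate 1 or without BCR/ABL replicate 2 neither gene was called, and without vector replicate 2 Podxl was not, while the Enah difference stayed between 4.21 and 4.64 and that of Podxl between 2.72 and 2.84. Both calls were also lost when the variance prior had no trend with intensity.

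Imatinib was set against untreated BCR/ABL cells to ask which levels differed in mice given the drug. Kinase activity was not measured on these arrays. Podxl differed by -1.26 with imatinib on the log2 scale (SE 0.12, adjusted p = 0.102), a 2.40-fold lower level, and its dimmer probe set by -0.98. That dimmer probe set read 3.99 and 9.16 with imatinib, under 16, so its difference depends on the added constant. Enah differed by -0.58 (SE 0.21, adjusted p = 0.277), and its other probe sets by -0.43 to -1.02. Zyx lay 0.67 higher (SE 0.18, adjusted p = 0.183), 1.59-fold, while its dimmer probe set differed by 0.14 (SE 0.48). None of these passed the limma threshold. Enah and Podxl were chosen by their height on the same untreated BCR/ABL arrays, and that choice alone favours lower levels with imatinib. Their p-values in this comparison are therefore a description and support nothing. Podxl passed when probe sets below the 30th percentile (adjusted p = 0.0358) or the 50th (adjusted p = 0.0358) were left out, or arrays were centred on their medians (-1.61, adjusted p = 0.00776), and over all its alternatives limma's adjusted p ran from 0.00776 to 0.52.

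For the remaining members the interval of the difference between imatinib and untreated cells included 0. Evl differed by 0.07 (95% interval -0.81 to 0.95), Vasp by 0.05 (-0.18 to 0.29), Ezr by -0.36 (-0.92 to 0.19), Rdx by -0.02 (-0.20 to 0.15) and Msn by 0.12 (-0.03 to 0.27). Ezr was lowest in imatinib replicate 2, and without that array its difference was -0.07. The signs of Evl, Vasp and Msn turned, to -0.17, -0.33 and -0.22, when arrays were centred on their medians, a scaling that moved the median of all genes by -0.27. For limma 0 of the 8 genes and 0% of all genes were called, and at an unadjusted p under 0.05 there were 3 of 8, Enah, Podxl and Zyx, where 17% of all genes reached that, 7.84% higher and 9.15% lower. By normalized level, groups did not overlap for 3 genes that were higher (Vasp, whose deposited intensities overlapped, Zyx and Msn) and 2 that were lower (Enah, Podxl), where 51.5% of all genes did not overlap, 24.7% higher and 26.8% lower. Enah and Podxl led to the choice of members, on the same untreated arrays, so nothing is read from either count.

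Treated cells were also set against vector cells; the 3 comparisons share arrays, so their values are not independent. Enah remained 3.84 above vector (SE 0.21) and Podxl 1.53 above (SE 0.12), and Evl differed by -1.06. Zyx lay 0.56 above vector (SE 0.18). Called by limma were 2 of 8 genes, Enah and Podxl, where 0.0824% of all genes were called; as both were chosen for their level above vector, nothing is read from that. Both calls were lost when the variance prior had no trend with intensity (limma adjusted p of 0.0861 for Enah and 0.123 for Podxl). With the added constant at 64 and in each fit that left out 1 array, Podxl was not called, and Enah was called in 2 of those 6 fits, those without vector replicate 1 or vector replicate 2. The difference of Podxl was 0.92 as the mean of its 2 probe sets.

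The genes with profiles most like that of Enah over the 6 arrays, by the root mean square difference of centred log2 levels, were Akr1c12 (0.26), a hydroxysteroid dehydrogenase family gene, Cdh1 (0.38), which encodes E-cadherin, the lipoxygenase gene Alox8 (0.39), the laminin chain gene Lama5 (0.49) and Cd200r3 (0.51), an activating receptor gene of mast cells and basophils. For Podxl they were the adaptor gene Stap2 (0.22), the transcription factor gene Klf5 (0.29), Akr1c13 (0.30), the collagen-binding integrin gene Itga2 (0.31) and Hrc (0.32). The 2 members were less alike, at 0.99: Podxl ranked 66 among the genes nearest to Enah, and Enah ranked 1770 among those nearest to Podxl. Like Enah and Podxl, the 10 neighbours were all higher in BCR/ABL than in vector cells, by 2.31 to 4.93, and with imatinib 9 of the 10 differed from untreated cells by -0.47 to -1.71, and Cd200r3 by 0.29. Their selection on all 6 arrays sets both directions. Alox8, Lama5, Itga2 and Hrc had vector means of 4.21, 4.32, 4.10 and 4.24. These are near the floor, so the sizes of those 4 differences depend on the added constant. Akr1c12 and Akr1c13 are near-identical paralogs whose probe sets may not separate them.

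Of 6 lists of actin and ERM genes, limma called 0 genes in any of the 3 comparisons. Of all genes it called 0.104% in BCR/ABL against vector, 0% in imatinib against untreated BCR/ABL and 0.0824% in BCR/ABL imatinib against vector. With shares that small, nothing is read from the absence of calls. Among 14 measured Ena/VASP binding partners the median difference between BCR/ABL and vector was -0.07, against 0.01 over all genes, with 6 higher and 8 lower and 1 at an unadjusted p under 0.05, where 12.7% of all genes reached that, 7.13% higher and 5.54% lower. Profilin 1 (Pfn1), which feeds actin to Ena/VASP proteins, differed by 0.15 (adjusted p = 0.746). The extremes were Apbb1ip, which encodes the Rap1 effector RIAM, at 0.40 and Robo1 at 0.38, and the cadherin Fat1 at -1.06 and the actin-binding palladin gene Palld at -0.72. Fat1 (SE 0.62) had overlapping log2 levels of 6.91 and 5.05 (vector) and 5.21 and 4.62 (BCR/ABL), some close to the floor. Robo1 (SE 0.43) was also close to the floor, at 4.47 to 5.74 over the 6 arrays. With imatinib their median was -0.01, and 3 were higher and 0 lower at an unadjusted p under 0.05. In that comparison 17% of all genes reached it, 7.84% higher and 9.15% lower. Robo4 differed by 1.15 and Palld by 0.65, and Raph1, which encodes lamellipodin, by -0.52 and the zyxin relative Trip6 by -0.49. Robo4 (SE 0.55) had log2 levels of 5.53 and 4.90 (BCR/ABL) and 5.85 and 6.88 (imatinib), some close to the floor. The focal adhesion gene Vcl, a partner of the family, had 0.21 and then 0.24 (adjusted p = 0.349 and 0.192).

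Actin nucleators and elongators (23 measured of 28 fixed) had medians of -0.02 for BCR/ABL against vector and 0.10 for imatinib against untreated, with 1 higher and 2 lower at an unadjusted p under 0.05 in the first and 3 higher and 0 lower in the second. Of all genes, 7.13% were higher and 5.54% lower at that p in the first, and 7.84% and 9.15% in the second. The formin gene Diaph3 differed by 0.61 and cortactin (Cttn) by 0.50, and Fmnl2 by -0.56 and Wasl, which encodes N-WASP, by -0.52 in BCR/ABL cells. With imatinib Nckap1l, a WAVE complex gene of blood cells, differed by 0.55 and Wasf2, which encodes WAVE2, by 0.51 (adjusted p = 0.132), and Wasf1 and Spire1 by -0.79 and -0.42. Subunits of the Arp2/3 complex such as Arpc2 and Actr3 differed by 0.01 and -0.08 in BCR/ABL cells.

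Capping and severing genes (19 of 20) had medians of 0.10 and 0.11, with 3 higher and 1 lower at an unadjusted p under 0.05 in BCR/ABL cells and 3 higher and 0 lower with imatinib. The shares over all genes were 7.13% higher and 5.54% lower, then 7.84% and 9.15% with imatinib. Scin, which encodes the severing protein scinderin, differed by 1.03 (adjusted p = 0.356) and the capping gene Capg by 0.74 (adjusted p = 0.211), while the cofilin phosphatase gene Ssh2 differed by -0.45 and Ssh1 by -0.24. With imatinib Scin differed by a further 0.71 and Ssh1 and Ssh3 by 0.64 each, and Eps8 by -0.24 and Wdr1 by -0.13. Cofilin 1 (Cfl1) was nearly level at -0.05.

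**Figure D4:**
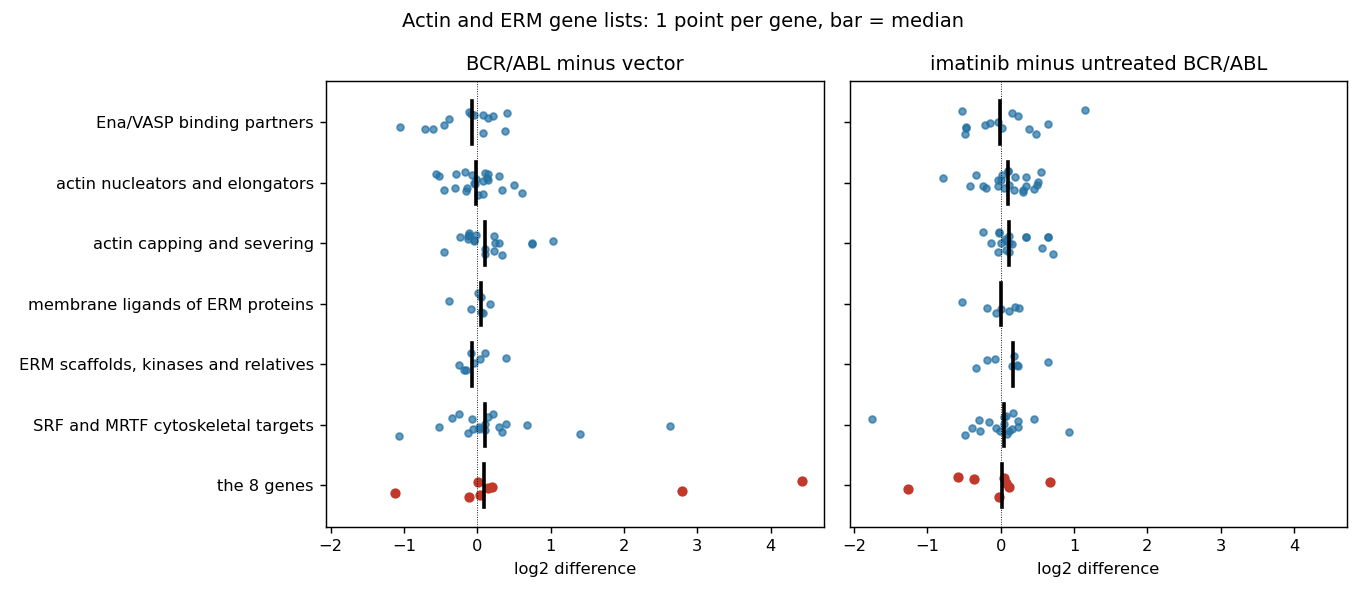
Log2 differences of the genes of 6 actin and ERM lists (blue, 1 point per gene) and of the 8 genes (red), BCR/ABL minus vector on the left and imatinib minus untreated BCR/ABL on the right; bars are list medians. The list medians lie between -0.07 and 0.17, and the points farthest to the right on the left panel are Enah at 4.42, Podxl at 2.79 and Fhl2 at 2.62.

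Membrane ligands of ERM proteins (7 of 8) had medians of 0.05 and 0.01. At an unadjusted p under 0.05 there were 0 in either comparison, against 12.7% and 17% of all genes. Cd34, the closest studied relative of podocalyxin, had log2 levels of 12.10 and 12.52 (vector), 12.23 and 12.20 (BCR/ABL) and 12.34 and 12.50 (imatinib), with overlapping groups and a difference of -0.09 (SE 0.15, adjusted p = 0.843). The third family gene, Podxl2, lay below an intensity of 16 on all 6 arrays. The leukosialin gene Spn differed by 0.17 and Selplg, which encodes the P-selectin ligand, by 0.07, and the adhesion ligand gene Icam1 by -0.39. With imatinib Selplg and Cd34 differed by 0.25 and 0.20, and Icam2 and Icam1 by -0.52 and -0.19.

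ERM scaffolds, kinases and relatives (8 of 11) had medians of -0.07 and 0.17, with 0 at an unadjusted p under 0.05 in BCR/ABL cells and 3 higher and 0 lower with imatinib. That p was reached by 12.7% of all genes in BCR/ABL cells and by 17% with imatinib, 7.84% higher and 9.15% lower. Slc9a3r1, which encodes the scaffold NHERF1 that joins podocalyxin to ezrin, differed by -0.15 (adjusted p = 0.621), Slc9a3r2 by 0.39, Rhoa by 0.11, and the ERM kinase genes Stk10 and Slk by -0.25 and -0.18. With imatinib Stk10 differed by 0.65 (adjusted p = 0.264) and Ppp1r12a, a myosin phosphatase subunit gene, by 0.23, and the ERM relative Nf2, which encodes merlin, by -0.33 and Slc9a3r2 by -0.19.

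The list of cytoskeletal targets of SRF and its coactivators (19 of 19) also holds Srf and the coactivator genes Mrtfa and Mrtfb themselves. It had medians of 0.10 and 0.04, with 4 higher and 0 lower at an unadjusted p under 0.05 in BCR/ABL cells and 2 higher and 2 lower with imatinib. Among all genes 7.13% were higher and 5.54% lower at that p in BCR/ABL cells, and 7.84% and 9.15% with imatinib. The LIM gene Fhl2 stood apart, with log2 levels of 5.20 and 4.83 (vector), 7.89 and 7.38 (BCR/ABL) and 6.50 and 5.27 (imatinib). Its differences were 2.62 (SE 0.52, adjusted p = 0.215) and -1.75 (SE 0.52, adjusted p = 0.218), neither past the threshold. The smooth muscle actin gene Acta2 differed by 1.40 (SE 0.80), with vector log2 levels of 7.59 and 5.21 against 7.83 and 7.78. Myl9 and Lima1 differed by -1.07 (SE 0.79) and -0.52. Myl9 lay near the floor on most arrays, at 6.29 and 4.41 (vector), 4.26 and 4.30 (BCR/ABL) and 6.14 and 4.28 (imatinib). With imatinib Myl9 and Mrtfa differed by 0.93 (SE 0.79) and 0.45, and Tpm4 by -0.48. The actin genes Actb and Actg1 differed by -0.06 and 0.30 in BCR/ABL cells.

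Signs of cell makeup and RNA quality moved with the same groups, and their part in the differences was not tested. Mast cell and basophil markers were higher in BCR/ABL than in vector for 10 of 10, with Hdc (2.35) and Gzmb (3.81) called. Their summed normalized intensity was 6771 to 11960.0 in vector, 37565 to 37868 in BCR/ABL and 53536 to 66732 with imatinib. Tpsb2 differed by 3.61 and was not called. Megakaryocyte and platelet markers were higher for 8 of 9, at 1793 to 2162, 3418 to 3996 and 6881 to 7088, with Gp6 below an intensity of 16 throughout and Gp1bb and Ppbp at 1.50 and 1.44. B cell markers were lower for 8 of 8: they summed to 22480 and 4804 in vector replicates 1 and 2, 1351 to 2454 in BCR/ABL and 668 to 1704 with imatinib (vector replicate 1 was also the highest array for Evl); Rag1 and Ebf1 differed by -4.42 and -3.20, and Pax5 lay below 16 throughout. T and NK cell markers were lower for 5 of 6, at 3966 to 5139 over all arrays. Nkg7, the marker that was not lower, had log2 levels of 11.94 to 12.31 and made up most of that sum. Each of the 5 lower markers was highest in vector replicate 1. Cd3d, for instance, had log2 levels of 8.31 and 4.82 (vector) and 4.48 and 5.78 (BCR/ABL). Stromal and endothelial markers, the latter from cells that also carry podocalyxin, summed to 884 to 1189 on all 6 arrays. In BCR/ABL 5 of 10 were higher, with Col3a1, Lepr and Pdgfra below 16 throughout. The endothelial genes Cdh5 and Kdr had log2 levels of 4.58 to 5.06 and 4.18 to 5.35, close to the floor. Emcn and Pecam1, also on that list, lay above it, at 6.06 to 7.91 and 8.64 to 9.67. Bulk arrays do not show which cells carried these transcripts. Granulocyte markers were higher for 8 of 10 (50047 to 76810.3, then 80769.7 to 88684), monocyte and macrophage markers for 6 of 9 (9241 to 19122, then 11667 to 16863) and erythroid markers for 3 of 6 (2399.9 to 6654, then 3261 to 3985), with Hba-a1 below 16 throughout.

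The sort gate itself was checked with 10 measured stem and progenitor markers, which summed to 15219 to 20988 in vector, 17198 to 20071 in BCR/ABL and 22964 to 28134 with imatinib. All 10 were higher with imatinib than in untreated BCR/ABL cells, by a median of 0.72. Limma called 0 of them and 0% of all genes, and 2 of the 10 had an unadjusted p under 0.05, where 17% of all genes did. Kit, part of the gate, had log2 levels of 10.71 and 11.06 (vector), 10.37 and 10.13 (BCR/ABL) and 11.38 and 11.39 (imatinib). It did not overlap between groups and differed by 1.13 with imatinib (limma adjusted p = 0.108). The part of these differences in the members' values was not tested. The ratio of 3-prime to 5-prime beta-actin signal was 1.30 and 1.48 in BCR/ABL and 1.55 to 1.81 on the other 4 arrays. Vector replicates were the least alike, with a correlation of 0.971 over probe sets against 0.990 for BCR/ABL and 0.985 with imatinib.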

How the data were processed

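Per the submitters' processing notes, the deposited values came from Affymetrix Expression Console and MAS5; no version or detection call was available. Each deposited value is an intensity on a linear scale for 1 probe set, and the mean after removal of 2% at each end was 500.0 on every array, so the authors had scaled the arrays alike. The design text names a whole-transcript array, but the probe set names are those of an older 3-prime mouse array, and the labelling is not settled. Of 45101 probe sets, 64 controls were left out and the 35877 with a symbol in the platform annotation, which can be old, were tested; 34945 have 1 symbol, 932 several and 9160 none. Each gene was represented by its brightest single-symbol probe set.

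Array medians of log2(intensity + 16) ran from 5.69 to 6.19, over a tolerance of 0.1, so arrays were quantile normalized. The added constant understates the fold change of dim genes. limma 3.58.1 in R 4.3.3 (lmFit, eBayes with trend) was fitted to all 6 arrays without a filter, with 3 residual and 2.97 prior degrees of freedom. Tests are two-sided, intervals are 95% limma intervals, and precision is limited by how few arrays there are. The fit was tested on simulated data.

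The members, the 6 pathway and 9 marker lists and the rules were chosen with earlier results of these data known. Named were the 8 members, for Enah and Podxl their 5 nearest genes, and of each list any called gene and up to 2 at either end of each comparison; of marker lists up to 2. Pfn1, Vcl, Arpc2, Actr3, Cfl1, Rhoa, Podxl2, Actb, Actg1, Kit, Cdh5, Kdr, Emcn and Pecam1 were named for their role, after their values were seen. Alternatives covered scaling, constant, filter, variance prior, replicate block and each array left out.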

Additional observations from a re-analysis of the deposited data

How the results depend on the processing

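With 2 arrays a group, limma's calls moved with the settings more than the differences did. In BCR/ABL against vector, 22 probe sets were called (21 higher, 1 lower). The number was 298 (265 higher, 33 lower) with array medians, 83 with 1 as the added constant, 189 when probe sets under the 30th percentile were dropped and 132 under the 50th, 42 with a robust prior, 0 with a prior without trend, and 0 to 38 with 1 array left out. Enah and Podxl, the 2 member genes called, were 0 without trend and 0 to 2 with 1 array left out. In imatinib against untreated BCR/ABL, 0 probe sets and 0 members became 1200 (67 higher, 1133 lower) and 1 with array medians, 142 and 1 at the 30th percentile, 211 and 1 at the 50th, and 3 probe sets with the constant at 1; they were 0 with any 1 array left out. In BCR/ABL imatinib against vector, 16 probe sets (15 higher, 1 lower) became 275 (201 higher, 74 lower) with array medians, 78 and 3 with constants of 1 and 64, 188 and 181 with the filters, 28 with the robust prior, 0 without trend, and 0 to 50 with 1 array left out; the 2 members called became 1 with the constant at 64, 0 without trend and 0 to 1 with 1 array left out. A group left with 1 array was assumed to vary like the others. Same-numbered replicates share only a number: their deviations correlated at -0.08 (vector with BCR/ABL), 0.16 (vector with imatinib) and 0.15 (BCR/ABL with imatinib). With the replicate block, 22, 0 and 9 probe sets and 2, 0 and 1 member genes were called in the 3 comparisons. Array medians moved the median of all genes by 0.20, -0.27 and -0.09.

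Over 16 alternatives, the differences of Enah and Podxl kept their sign in all 3 comparisons, and so did Evl's in both comparisons with vector. The sign turned for Zyx in 3, Rdx in 3 and Msn in 2 alternatives of BCR/ABL against vector, all with main differences of at most 0.11 in size.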
